A study of Homo sapiens with 25 samples.

Results

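The ligands of the epidermal growth factor (EGF) family were followed in 3 cell lines, labelled BT20, MDA-MB-453 and MCF, after addition of erlotinib. The 8 genes considered were TGFA, EREG, AREG, HBEGF, BTC, EPGN, EGF and NRG1. A gene was taken from every array probe set annotated to its symbol alone, and where it had several, the probe set with the highest mean over the 25 arrays led. Of the 8 ligands, 6 had such a probe set (18 probe sets among the 54613 on the array), and AREG and EPGN, which had none in the annotation used, were not analysed here. All 6 passed the filter applied to the 19775 genes with a probe set of 1 symbol, which asked for log2 signals over 4 in 3 arrays or more and kept 12643 genes.

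EGF-family ligands are made as membrane-anchored precursors, are shed by metalloproteases, and bind the extracellular part of the ErbB receptor tyrosine kinases. Transforming growth factor alpha (TGFA), EGF, amphiregulin (AREG) and epigen (EPGN) bind EGFR. Heparin-binding EGF-like growth factor (HBEGF), epiregulin (EREG) and betacellulin (BTC) bind EGFR and ERBB4, and neuregulin 1 (NRG1) binds ERBB3 and ERBB4. Epithelial tumour cells often make such ligands themselves, and genes of several of them belong to those transcribed in answer to the ERK pathway downstream of the receptors.

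Erlotinib is a small-molecule inhibitor of the EGFR kinase and was added at 10 µM to every culture, in medium with 10% fetal bovine serum, after a day of attachment. BT20 was sampled at 0 min (4 arrays) and at 30 min, 6 h and 24 h (3 arrays each), and MDA-MB-453 and MCF at 0 min and 24 h (3 arrays each). The 0 min arrays served as the untreated state of each line. BT20 and MDA-MB-453 are human breast carcinoma lines, and the label of the third reads only MCF and does not say which MCF line it is. BT20 and MDA-MB-453 belong to the first part of the series and MCF to the second, so levels of MCF were not tested against those of the other lines, and values set beside each other are described within each line. No line had an untreated culture at 24 h, so drug and time in culture cannot be told apart in any comparison. The labels do not say whether replicates came from separate cultures, and p-values then measure the spread between these samples, which may be technical.

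The arrays of each part had similar overall brightness, with a 75th percentile of 7.65 to 7.81 on the log2 scale in the 19 arrays of the first part and 7.27 to 7.32 in the 6 of the second. BT20 0 min replicate 4 stood apart. It correlated at 0.990 to 0.992 with the 3 BT20 arrays at 6 h, and at 0.971 to 0.975 with the other 3 arrays at 0 min. Many of the BT20 changes are therefore given also with a batch term for replicate 4 and the 6 h arrays. Under it 30 min and 24 h are compared with replicates 1 to 3, and 6 h with replicate 4 alone. The errors and p-values of a comparison with that 1 array rest on the spread within the other groups and assume that it varies as they do. Among markers set out for the lines, KRT5 was at a mean log2 value of 12.37 in BT20 at 0 min, and by the mean over a line's arrays 3 of 4 basal markers lay above 4 there, KRT14 being the one that did not. In MDA-MB-453 0 of 4 did, and in MCF 1 of 4. Luminal markers lay above 4 for 6 of 9 genes in BT20, 7 of 9 in MDA-MB-453 and 9 of 9 in MCF. ESR1, the estrogen receptor, was at 8.66 in BT20 at 0 min, at 2.61 in MDA-MB-453 and at 12.47 in MCF. No blood cell marker of 5 lay above 4 in any line. Of 5 fibroblast markers COL1A1 alone did so for BT20 as for MDA-MB-453, and 2 did for MCF. The endothelial cadherin CDH5 was at 11.13 in BT20, the only one of 3 endothelial markers whose mean over a line's arrays passed 4 in any line. The array gives RNA of whole cultures, so fewer cells of a kind and less RNA per cell cannot be told apart.

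In BT20, 3 ligands fell over the day after erlotinib, namely HBEGF, EREG and TGFA, by 12.9-fold, 5.47-fold and 2.10-fold. The HBEGF mean at 24 h lay below the filter level, so its fold is inexact. HBEGF was already lower at 6 h. BTC, NRG1 and EGF did not pass the test at 24 h. In MDA-MB-453 the one ligand called was BTC, which rose 2.68-fold from a level below the filter, and in MCF no ligand was called. A gene was called changed where the limma p-value, adjusted by the Benjamini-Hochberg method over all 12643 genes, was under 0.05.

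**Figure D1:**
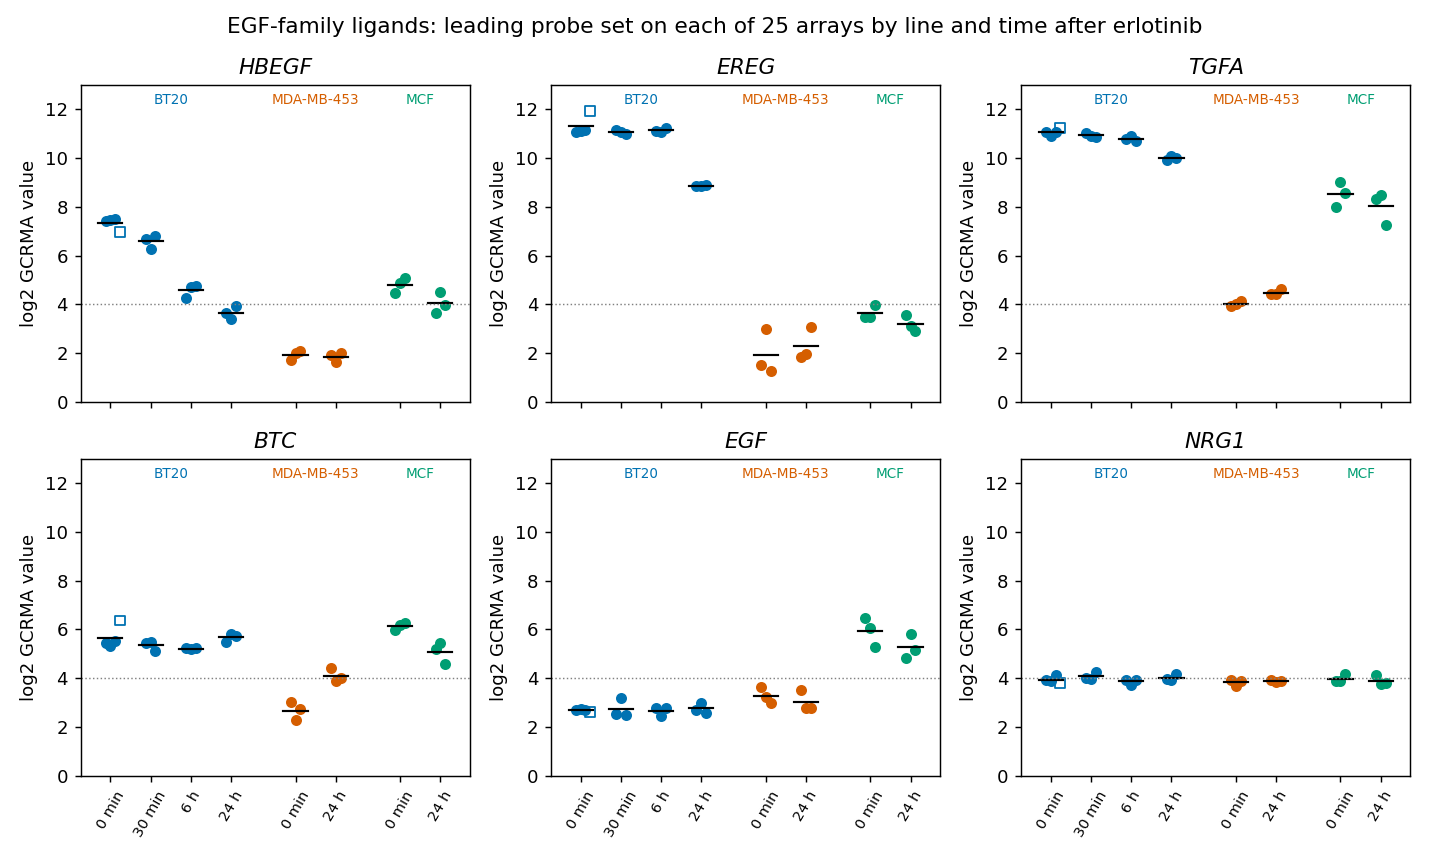
Log2 GCRMA value of the leading probe set of each ligand on each of the 25 arrays, by line and time after erlotinib. Each point is an array, the open square is BT20 0 min replicate 4, the bar is the group mean and the dotted line marks the filter level of 4; HBEGF runs from 6.98 to 7.51 at 0 min down to 3.38 to 3.93 at 24 h in BT20, while NRG1 stays between 3.66 and 4.25 throughout.

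The promoters of the 3 ligands called lower in BT20 at 24 h are shown as the stretch of 250 bases that ends just before the annotated transcription start, from RefSeq on GRCh38.p14, written 5′ to 3′ on the strand of the gene. All 7 ligands outside NRG1 had an entry, and NRG1 is left out here. Capitals mark matches, on either strand, to any of 5 motifs: the AP-1 site TGACTCA, the CRE half-site TGACGT, the ETS motif CCGGAA, the GC box GGGCGG and the TATA box TATAAA.
HBEGF, chr5:140346604-140346853, minus strand: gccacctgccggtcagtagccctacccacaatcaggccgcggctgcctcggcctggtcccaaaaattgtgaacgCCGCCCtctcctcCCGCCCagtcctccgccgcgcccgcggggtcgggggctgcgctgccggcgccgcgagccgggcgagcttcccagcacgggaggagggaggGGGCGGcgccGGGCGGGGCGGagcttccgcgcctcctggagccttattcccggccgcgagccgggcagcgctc
EREG, chr4:74364895-74365144, plus strand: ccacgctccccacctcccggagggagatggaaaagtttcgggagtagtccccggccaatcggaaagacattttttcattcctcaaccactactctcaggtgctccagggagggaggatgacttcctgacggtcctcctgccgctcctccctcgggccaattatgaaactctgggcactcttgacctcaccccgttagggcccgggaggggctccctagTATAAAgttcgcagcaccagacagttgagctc
TGFA, chr2:70553827-70554076, minus strand, the first of 2 entries: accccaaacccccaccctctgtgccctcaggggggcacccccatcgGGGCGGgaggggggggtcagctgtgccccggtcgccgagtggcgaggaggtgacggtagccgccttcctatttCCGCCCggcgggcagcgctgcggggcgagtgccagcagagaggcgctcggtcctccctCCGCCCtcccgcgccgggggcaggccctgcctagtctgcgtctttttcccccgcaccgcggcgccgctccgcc

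The HBEGF promoter held 5 GC box matches, of which the last 2 share a base, and the TGFA stretch shown held 3. The second TGFA entry, not shown, held 0 GC boxes and an ETS motif match on the minus strand at positions -208 to -203. Of the 35116 RefSeq promoters of this length, 42.6% held at least 1 GC box. The EREG promoter held a TATA box at positions -32 to -27 from the start, as 10.7% of all promoters did somewhere in the window, and no GC box. None of the 3 stretches shown held the AP-1, CRE or ETS letters searched, which 4.2%, 7.1% and 14.5% of all promoters held. Only these exact letters were looked for. Sites with other letters, the shorter GGAA among them, were not counted, so such sites may be present. The matches are descriptions of the letters and no binding was measured. EREG lies on chromosome 4 beside 3 other ligand genes in the order EPGN, EREG, AREG, BTC, with 0 annotated protein-coding genes between neighbours.

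HBEGF, which binds heparan sulfate as well as its receptors, was the ligand whose RNA fell most. Its leading probe set (203821_at) was at log2 values of 7.44, 7.45, 7.51 and 6.98 in BT20 at 0 min, the last being replicate 4. It was at 6.69, 6.27 and 6.82 at 30 min, and at 4.26, 4.71 and 4.75 at 6 h. At 24 h it was at 3.66, 3.38 and 3.93. Each later group lay wholly below the 0 min arrays, and the groups stepped down in the order of time without overlap. Of all genes tested in BT20, 21.3% lay below 0 min without overlap at 6 h and 19.6% at 24 h.

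At 30 min HBEGF stood -0.75 ± 0.21 (SE, 3 against 4 arrays, log2) from 0 min, with an unadjusted p of 0.00224 and an adjusted p of 1.00 by limma, so it was not called. None of the 6 ligands was called at 30 min, in a comparison where 0.0158% of all genes tested were. Of the genes tested, 2.41% lay below 0 min without overlap at 30 min, as HBEGF did. With the batch term the difference was -0.87 (adjusted p = 0.629). At 6 h HBEGF fell by 2.77 ± 0.21 (6.82-fold, adjusted p = 1.67e-08). It was the only ligand of the 6 called at 6 h, where 38.2% of all genes were called and 16.6% were called lower. Against replicate 4 alone it fell by 2.40 ± 0.31 (adjusted p = 9.16e-05), in a fit that called 2.31% of all genes and 1.21% lower. At 24 h HBEGF fell by 3.69 ± 0.21 (adjusted p = 3.14e-11), and by 3.81 with the batch term, a fit that called 36.7% of all genes at 24 h. Its 24 h mean of 3.65 lay below the filter level, so the size of the fall is inexact. Only 30 of the 12643 genes tested had a lower difference at 24 h, and 18 at 6 h.

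A second HBEGF probe set, 38037_at, was at 7.31, 7.33, 6.91 and 6.17 at 0 min, where replicate 4 was again the lowest. It was at 6.17, 6.59 and 6.71 at 30 min, at 4.05, 4.10 and 4.04 at 6 h and at 3.54, 3.75 and 3.81 at 24 h. The 6 h and 24 h groups lay below all 0 min arrays and the 30 min group overlapped with them. When every probe set was tested (29774 passed the filter), 33.6% were called at 6 h and 29.0% at 24 h. This one fell by 2.87 at 6 h (adjusted p = 3.00e-08) and by 3.23 at 24 h (adjusted p = 5.87e-10). Against replicate 4 alone, where 1.46% of probe sets were called at 6 h, it fell by 2.10 (adjusted p = 5.42e-05). The other 2 HBEGF probe sets (244857_at and 222076_at) stayed between 1.97 and 2.64 on all 25 arrays, never above 4, and were not tested. With all 4 averaged, HBEGF fell by 1.43 at 6 h and by 1.75 at 24 h, both called.

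EREG, a ligand with broad ErbB activity that many carcinoma cells release, was called in BT20 at 24 h on its leading probe set (205767_at) and at neither earlier time. The 0 min values were 11.055, 11.09, 11.15 and 11.95, with replicate 4 the highest. They were 11.16, 11.07 and 10.98 at 30 min, and 11.10, 11.09 and 11.22 at 6 h. At 24 h they were 8.84, 8.85 and 8.89, far below every earlier array and within 0.05 of each other. The 30 min and 6 h groups overlapped with 0 min.

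EREG fell by 2.45 ± 0.33 at 24 h (5.47-fold, adjusted p = 5.01e-06), and by 2.24 with the batch term (adjusted p = 1.74e-05). At 24 h 3 of the 6 ligands were called, all lower, where 32.8% of all genes tested were called and 13.9% were called lower. Of all genes, 97 had a lower difference than EREG. At 6 h the EREG difference was -0.18 (95% interval -0.86 to 0.50, adjusted p = 0.703), and -0.81 ± 0.47 against replicate 4 alone (adjusted p = 0.628). The mean of its probe sets was called at 6 h, at -0.85 (adjusted p = 0.0453).

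The second EREG probe set, 1569583_at, gave another time course. It was at 5.69, 6.01, 5.76 and 7.34 at 0 min, with replicate 4 the highest, and at 3.74, 4.16 and 3.72 at 30 min. It was at 4.61, 4.76 and 4.65 at 6 h and at 3.73, 3.94 and 3.47 at 24 h. All later arrays lay below all 0 min arrays, already at 30 min.

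At 30 min this probe set stood -2.33 ± 0.37 from 0 min (adjusted p = 0.0229), where 0.0202% of all probe sets were called. With the batch term, which called 0.0269% of probe sets at 30 min, it was -1.95 (adjusted p = 0.0368). The call was lost on leaving out any of the 3 arrays at 30 min, with adjusted p of 0.179, 0.165 and 0.233 without replicate 1, 2 and 3, and when the BT20 arrays were fitted alone (adjusted p = 0.075). At 6 h it fell by 1.52 (adjusted p = 0.0036), and by 2.66 against replicate 4 alone (adjusted p = 0.00197). At 24 h it fell by 2.49 (adjusted p = 2.04e-05). Its means of 3.87 at 30 min and 3.71 at 24 h lay below the filter level, so these sizes are inexact. Both EREG probe sets were lower at 24 h, and this one alone was called at 30 min and 6 h. The difference between the probe sets was not tested.

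TGFA, a ligand of EGFR alone, was at 11.07, 10.92, 11.06 and 11.24 in BT20 at 0 min on its leading probe set (205016_at). It was at 11.03, 10.89 and 10.87 at 30 min and at 10.78, 10.90 and 10.68 at 6 h. At 24 h it was at 9.93, 10.07 and 10.00. The 24 h arrays were lower than all others by more than the spread within any BT20 group, and the 6 h arrays lay just below the lowest 0 min array.

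TGFA fell by 1.07 ± 0.23 at 24 h (2.10-fold, adjusted p = 0.00082), and by 1.02 with the batch term (adjusted p = 0.00239). At 6 h its difference was -0.29 (adjusted p = 0.338), and -0.46 against replicate 4 alone (adjusted p = 0.809). The 6 h difference was called when the BT20 arrays were fitted alone (adjusted p = 0.027). Of all genes, 643 had a lower difference than TGFA at 24 h.

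All 3 TGFA probe sets were called lower at 24 h, and at 6 h their differences ran in both directions. Probe set 205015_s_at was at 6.15, 6.58, 6.10 and 5.03 at 0 min, with replicate 4 the lowest, at 6.29, 6.44 and 6.69 at 30 min, at 4.52, 4.46 and 4.14 at 6 h and at 4.52, 4.71 and 4.28 at 24 h. Its 6 h and 24 h arrays lay below every 0 min array. It fell by 1.59 at 6 h (adjusted p = 9.24e-05), a call lost against replicate 4 alone (-0.65, adjusted p = 0.282), and by 1.46 at 24 h (adjusted p = 7.39e-05).

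Probe set 211258_s_at of TGFA was at 4.03, 3.99, 5.00 and 7.53 at 0 min, so replicate 4 stood far above the rest. It was at 5.98, 4.05 and 4.47 at 30 min, at 7.16, 7.29 and 6.77 at 6 h and at 3.10, 3.51 and 3.35 at 24 h. Replicate 4 and the 6 h arrays were the 4 highest of the line on this probe set. Its 6 h difference was 1.93 against all 4 arrays at 0 min (adjusted p = 0.0200) and -0.46 against replicate 4 alone (adjusted p = 1.00), so the direction turned. Its 24 h difference was -1.82 (adjusted p = 0.0296). The batch term, with 32.8% of probe sets called at 24 h, or leaving out 0 min replicate 4, moved it to -1.02 without a call (adjusted p = 0.0792). The 24 h call was also lost without replicate 1, 2 or 3 at 24 h, with adjusted p of 0.0958, 0.0589 and 0.0733. The part of replicate 4 in the 6 h results was not tested.

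**Figure D2:**
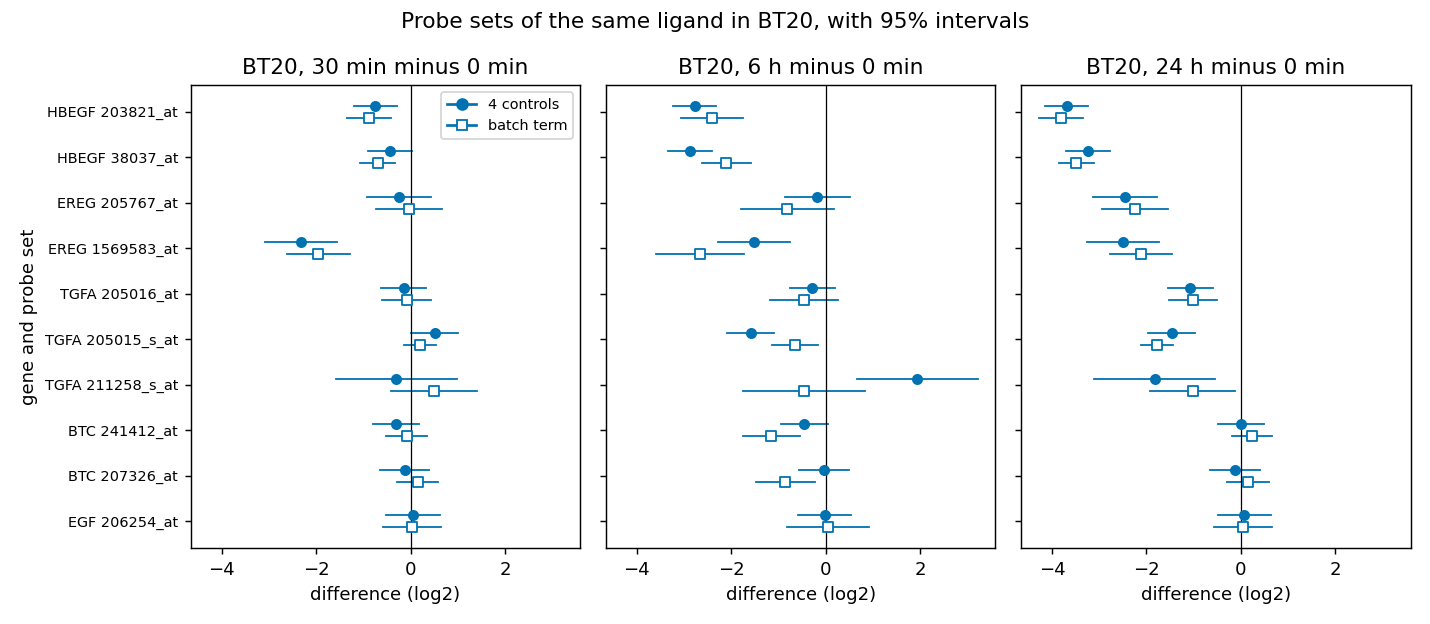
Difference from 0 min in BT20, on the log2 scale, for the tested probe sets of 5 ligands at 30 min, 6 h and 24 h, with 95% intervals. Filled circles use all 4 arrays at 0 min and open squares the batch term; both HBEGF probe sets lie between -3.81 and -2.10 at 6 h and 24 h, EREG 1569583_at is already at -2.33 at 30 min, and TGFA 211258_s_at changes sign at 6 h, from 1.93 to -0.46.

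BTC, which binds EGFR and ERBB4, did not follow the other 3. Its leading probe set (241412_at) was at 5.45, 5.32, 5.54 and 6.37 in BT20 at 0 min, with replicate 4 the highest, and at 5.46, 5.50 and 5.11 at 30 min. It was at 5.24, 5.18 and 5.23 at 6 h and at 5.47, 5.81 and 5.73 at 24 h. The 24 h arrays overlapped with 0 min, and the 6 h arrays lay below all 0 min arrays, as for 21.3% of all genes. The difference at 24 h was 0.00 (95% interval -0.48 to 0.49, adjusted p = 0.997). At 6 h it was -0.45 ± 0.23 (adjusted p = 0.134). Against replicate 4 alone, the highest 0 min array, the 6 h difference was -1.15 ± 0.29 and was called over genes (adjusted p = 0.0387) but not over probe sets (adjusted p = 0.0553). The second BTC probe set, 207326_at, ranged from 3.70 to 5.18 at 0 min and from 4.09 to 4.46 at 24 h, with a difference of -0.13.

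EGF, the founding member of the family, and NRG1 were low in BT20. The EGF probe set (206254_at) lay between 2.44 and 3.19 on the 13 BT20 arrays and never reached 4, so its differences from 0 min of 0.05 at 30 min, -0.02 at 6 h and 0.07 at 24 h describe values near background. The leading NRG1 probe set (208232_x_at) lay between 3.66 and 4.25 on all 25 arrays, with 6 arrays above 4, and was not called in any comparison. The other 5 NRG1 probe sets were above 4 on none of the 25 arrays. NRG1 thus passed the filter on values that barely crossed it.

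The genes whose differences over the 3 BT20 times were nearest to those of a falling ligand were found by the root-mean-square difference over the 3 values, as a description with no test. HBEGF was nearest to LIF, a cytokine of the interleukin-6 family, at 0.258, with LIF differences of -1.07 at 30 min, -2.66 at 6 h and -3.40 at 24 h. It was followed by SPRY4-IT1, a noncoding RNA from the SPRY4 locus, at 0.344 and PRR9 at 0.426. EREG was nearest to MB21D2 at 0.055, ACOX2 at 0.076 and POLR3G, a subunit of RNA polymerase III, at 0.0998, all with their fall at 24 h. TGFA was nearest to RNF227 at 0.037, SLC37A3 at 0.042 and CASC7 at 0.043.

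At 0 min, BT20 and MDA-MB-453, which lie in the same part of the series, differed in most ligands. Of the 6 ligands, 4 were higher in BT20, in a comparison where 66.7% of all genes were called and 32.6% were called higher in BT20. EREG was at 1.52, 2.97 and 1.28 in MDA-MB-453 at 0 min, below 4 on every array, and the BT20 mean lay 9.39 ± 0.33 above it on the log2 scale (adjusted p = 2.52e-16). EREG passed the filter by the 13 BT20 arrays alone, so it was tested only through the line where it is high. Its call between lines is therefore no separate support. TGFA was at 3.94, 4.00 and 4.12 in MDA-MB-453, and the BT20 mean was 7.05 ± 0.23 above (adjusted p = 5.71e-17). HBEGF was at 1.72, 2.01 and 2.10, with BT20 5.40 ± 0.21 above (adjusted p = 2.59e-15). No MDA-MB-453 array at 0 min came near a BT20 array for these 3, and since the MDA-MB-453 means lie at or below 4, the sizes are inexact. BTC was at 3.02, 2.28 and 2.73, with BT20 2.99 ± 0.23 above (adjusted p = 3.00e-10). EGF was 0.59 lower in BT20 than in MDA-MB-453 and was not called (adjusted p = 0.0581), though it was called without MDA-MB-453 0 min replicate 3 (-0.73, adjusted p = 0.0429), with array weights (adjusted p = 0.00933) and in the fit of these lines alone (adjusted p = 0.015). Both EGF means lay below 4.

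In MDA-MB-453, whose EGFR mean was 3.53 at 0 min against 12.38 in BT20, BTC rose over the day. Its leading probe set went from 3.02, 2.28 and 2.73 at 0 min to 4.40, 3.88 and 4.02 at 24 h, with no overlap. The rise was 1.42 ± 0.25 (2.68-fold, adjusted p = 0.000838), and BTC was the only 1 of the 6 ligands called, where 5.77% of all genes were called and 4.22% were called higher. Only 88 genes of the 12643 had a higher difference. The 0 min mean of 2.68 lay below the filter level, so the size is inexact. The second BTC probe set went from 2.77, 2.92 and 2.65 to 3.25, 3.26 and 3.12, again with no overlap but below 4 on every array, and its difference of 0.43 ± 0.27 was not called (adjusted p = 0.533).

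TGFA in MDA-MB-453 was at 4.44, 4.41 and 4.61 at 24 h, above the 3.94 to 4.12 of 0 min. The difference of 0.46 ± 0.24 was not called (adjusted p = 0.376), and 17.6% of all genes lay higher at 24 h without overlap. With the 6 MDA-MB-453 arrays fitted alone it was called (adjusted p = 0.0417), while both other TGFA probe sets stood lower at 24 h, at -0.28 and -0.30, below 4 in both groups. EREG and HBEGF remained below 4 on all 6 arrays, at 1.28 to 3.07 and 1.62 to 2.10. EGF lay between 2.79 and 3.62.

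In MCF, BTC, EGF, TGFA and HBEGF had 0 min values above 4, EREG did not, and all 5 had lower means at 24 h without a call. BTC was at 5.99, 6.18 and 6.25 at 0 min and at 5.18, 5.45 and 4.57 at 24 h, with no overlap. The difference was -1.07 ± 0.26 (2.10-fold, adjusted p = 0.413) when the 6 MCF arrays were fitted alone, a fit that called 0.00791% of all genes, namely 1, and gave 736 genes an unadjusted p under 0.05. In the fit to all 25 arrays, which takes the spread from all lines and called 3.20% of genes, BTC was called (adjusted p = 0.0172). Its second probe set, at 4.58, 4.76 and 4.85 at 0 min and 4.31, 3.98 and 3.58 at 24 h, was lower without overlap too. Of all genes tested, 6.32% were lower without overlap in MCF.

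EGF passed the filter by the 6 MCF arrays alone. It was at 6.47, 6.07 and 5.28 at 0 min and at 4.82, 5.83 and 5.14 at 24 h, with overlap, and its difference was -0.67 ± 0.39 (adjusted p = 1.00). TGFA was at 7.998, 9.003 and 8.570 at 0 min and at 8.32, 8.50 and 7.23 at 24 h, with a difference of -0.50 ± 0.42. HBEGF was at 4.45, 4.86 and 5.09 at 0 min and at 3.63, 4.51 and 3.96 at 24 h, with a difference of -0.77 ± 0.29 (adjusted p = 0.786). EREG ranged from 3.49 to 3.95 at 0 min and from 2.92 to 3.56 at 24 h, below 4 on all 6 arrays, with a difference of -0.45. The groups overlapped for each of these 4 ligands on the leading probe sets. The second HBEGF probe set was lower at 24 h without overlap, at 3.91 to 4.48 and then 3.56 to 3.83. Its difference of -0.40 was not called (adjusted p = 0.969).

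**Figure D3:**
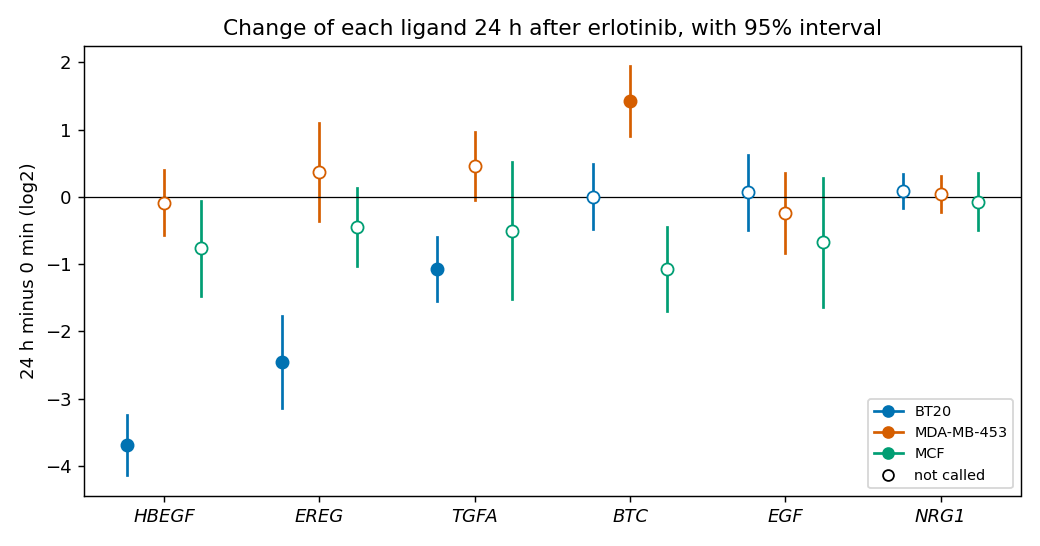
Difference of each ligand at 24 h from 0 min of the same line, on the log2 scale, with 95% intervals, for the leading probe sets. Filled points were called; HBEGF (-3.69), EREG (-2.45) and TGFA (-1.07) are filled for BT20 and BTC (1.42) for MDA-MB-453, and no MCF point is filled.

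The difference between lines was tested on the 24 h changes themselves, in the fit to all 25 arrays. That fit takes the spread from all lines. For the MCF change it called 404 genes, where the fit to the 6 MCF arrays called 1, so calls against MCF are less certain. The change in BT20 was below that in MDA-MB-453 for 4 of the 6 ligands, where 14.8% of all genes were called and 7.12% were called in that direction. The difference between the changes was -3.61 ± 0.31 for HBEGF (adjusted p = 4.45e-08), -2.82 ± 0.48 for EREG (adjusted p = 0.000227) and -1.54 ± 0.33 for TGFA (adjusted p = 0.00235). For BTC it was -1.42 ± 0.34 (adjusted p = 0.00562), from the rise in MDA-MB-453 with no difference in BT20. EREG and HBEGF lay below 4 in MDA-MB-453 at both times, so a fall there could not have been measured. TGFA was at 3.94 to 4.12 there at 0 min, at the filter level, so a fall of TGFA could hardly have been measured either.

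Against MCF, 3 ligands were called, where 15.4% of all genes were. The BT20 change minus the MCF change was -2.92 ± 0.31 for HBEGF (adjusted p = 1.01e-06). HBEGF lay close to 4 in MCF at both times, so a fall as large as that in BT20 could hardly have been measured in MCF. EREG gave -2.005 ± 0.48 (adjusted p = 0.00557), with EREG below 4 in MCF at both times. BTC gave 1.07 ± 0.34, a lower change in MCF than in BT20 (adjusted p = 0.0355). The BTC call was lost on leaving out BT20 0 min replicate 1, 2 or 3, BT20 24 h replicate 2 or 3, MCF 0 min replicate 2 or 3, or MCF 24 h replicate 1 or 3, with differences of 0.83 to 1.13 and adjusted p of 0.0501 to 0.0866. TGFA gave -0.57 ± 0.33 (adjusted p = 0.303), and -0.96 (adjusted p = 0.00852) without MCF 24 h replicate 3, the lowest TGFA array of that group. Of its other probe sets, 205015_s_at was called in this comparison (-1.38, adjusted p = 0.01045), with MCF means below 4. Probe set 211258_s_at was not (-1.25, adjusted p = 0.437). The changes of MDA-MB-453 and MCF were compared as well, a comparison added after the data had been seen. There BTC gave 2.50 ± 0.35 (adjusted p = 0.000238) as the only ligand called, where 2.34% of all genes were.

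Of the 4 ErbB receptors that bind these ligands or pair with those that do, 2 rose and none fell in BT20 at 24 h, where 32.8% of all genes were called, and their median difference was 0.35 beside 0.03 over all genes. ERBB2, the receptor without a ligand of its own, rose by 1.31 ± 0.28 (adjusted p = 0.000859), and by 1.14 with the batch term (adjusted p = 0.00313). ERBB3, which needs a partner for kinase activity, rose by 0.75 ± 0.09 (adjusted p = 1.56e-06). ERBB3 had also risen at 6 h, by 0.67, and by 0.64 against replicate 4 alone (adjusted p = 0.00992). EGFR stood at -0.54 ± 0.23 at 24 h, below 0 min without overlap, as 19.6% of all genes did, and without a call (adjusted p = 0.0841). ERBB4 had a mean of 2.57 in BT20 at 0 min. In MDA-MB-453, where 5.77% of all genes were called, the receptor called was ERBB4. It rose by 0.70 (adjusted p = 0.0462) and was picked out after its value was seen. In MCF, where 0.00791% of all genes were called, none of the 4 was.

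Of the other neuregulins, NRG3 and NRG4 were tested and NRG2 was not. Neither was called in BT20 against all 4 arrays at 0 min, and with the batch term NRG4 was lower at 24 h (-0.47, adjusted p = 0.0408), with means below 4. NRG3, a ligand of ERBB4, had a mean of 7.66 in MDA-MB-453 at 0 min and rose there by 0.54 (adjusted p = 0.0447), a gene named after its value was seen. Its mean in BT20 at 0 min was 1.84.

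Of the genes for shedding and transport of the ligands, 1 of 15 tested rose in BT20 at 24 h and 1 fell (1 and 2 with the batch term), where 32.8% of all genes were called, and the median was 0.13. RHBDL2, a rhomboid protease of the cell membrane that can cleave EGF-family precursors, rose by 3.48 ± 0.27 (adjusted p = 2.40e-09), and by 3.84 with the batch term. CNIH1, a cargo receptor for export from the endoplasmic reticulum, fell by 0.44 (adjusted p = 0.018). The RHBDL2 change in BT20 exceeded that in MDA-MB-453 by 3.56 (adjusted p = 1.34e-06) and that in MCF by 3.21 (adjusted p = 5.79e-06), though RHBDL2 was below 4 in both other lines. At 6 h 4 genes rose and 2 fell, a share near the 38.2% of all genes called there, among them RHBDL2 (1.59) and the sheddase gene ADAM17 (0.73) upward and ADAM15 (-1.24) downward, and against replicate 4 alone none of the 15 was called, with RHBDL2 at 0.49 (adjusted p = 0.514). In MDA-MB-453 and in MCF none of these 15 genes was called, where 5.77% and 0.00791% of all genes were.

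Of the inhibitors of the receptors, 2 of 12 rose and 3 fell in BT20 at 24 h, beside 32.8% of all genes called, with a median of -0.01. With the batch term 3 rose and 3 fell, beside 36.7% of all genes called. CBLB, a ubiquitin ligase for activated receptors, rose by 1.15 ± 0.14 (adjusted p = 1.90e-06), and RNF41, the ubiquitin ligase of ERBB3, by 0.52 (adjusted p = 0.0164). UBASH3B, a phosphatase that binds CBL proteins, fell by 0.84 (adjusted p = 7.36e-06) and ERRFI1, a feedback inhibitor of the EGFR kinase, by 0.60 (adjusted p = 0.00514). At 6 h 5 rose and 4 fell, beside 38.2% of all genes called, and against replicate 4 alone the called ones were CBLB, which rose by 1.48, and LRIG1, which fell by 0.93.

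The genes listed as output of the ERK pathway fell in BT20. This list was chosen with earlier results of these data known, so its counts are a description and no separate support. At 24 h 16 of 16 were called lower with a median of -2.38, beside 0.03 over all genes and 13.9% of genes called lower, and with the batch term 15 of 16 were. At 6 h 14 of 16 were lower with a median of -1.18, beside 16.6% of all genes called lower. Against replicate 4 alone their median was -1.57. DUSP6, a phosphatase of ERK, stood at -5.58 at 6 h and -5.93 at 24 h. SPRY4, an inhibitor of receptor signalling, stood at -5.12 and -4.76, and FOSL1, an AP-1 subunit, at -6.42 and -5.98. At both later times the DUSP6 and SPRY4 means were under the filter level, which leaves their sizes inexact. At 30 min, where 0.0158% of all genes were called, none of the 16 was, and their median was -0.17. In MDA-MB-453 none of the 16 was called at 24 h, where 5.77% of all genes were. Their median there was -0.24, beside 0.02 over all genes. In MCF 1 was, ETV5, which fell by 2.61 (adjusted p = 0.0334) and was the only gene called in that line.

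**Figure D4:**
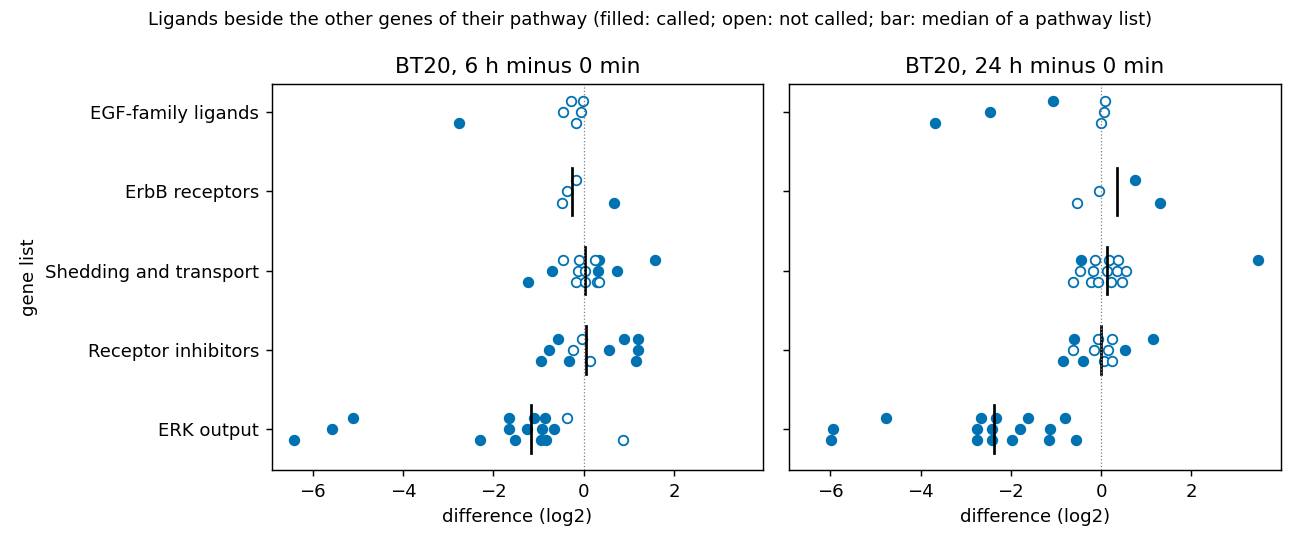
Differences from 0 min in BT20 at 6 h and 24 h, on the log2 scale, for the ligands and for the lists of receptors, shedding and transport genes, receptor inhibitors and ERK output genes. Each point is a gene, filled where called, and the bar is the median of a pathway list; the ERK output list lies lowest, with a median of -1.18 at 6 h and -2.38 at 24 h, and HBEGF is the lowest ligand at both times.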

How the data were processed

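Biotin-labelled RNA of 25 samples was hybridised to Affymetrix arrays, 1 array per sample. The deposited values are on a log2 scale and were made by the authors with GCRMA 2.20.0 in R 2.11.1, per the submitters' processing notes. GCRMA corrects background and leaves low values close to a floor. The values were used as deposited. Of the 54613 probe sets, 41091 carried 1 gene symbol, 1801 several and 11721 none in the platform annotation. A gene is its probe set of 1 symbol with the highest mean over the 25 arrays, and levels were not compared between probe sets. Group means were fitted with limma 3.58.1 in R 4.3.3 to all 25 arrays (8 groups), and for MCF to its 6 arrays alone, with two-sided tests and Benjamini-Hochberg adjustment over all genes, and again over every probe set. The number of arrays limits the precision. The fits were tested on simulated data. No arrays were identical. Replicate numbers were not used as pairs in the main fits, and whether they pair the samples is not known. With group means removed, same-numbered BT20 arrays correlated at -0.49 to 0.36 and others at -0.54 to 0.38. Members and lists were chosen with earlier results of these data known. Every ligand is named; of each list, up to 4 called genes with the smallest p per BT20 comparison are, and for each falling ligand the 3 nearest genes. Alternatives were averaging all probe sets of a gene, other filters, quantile normalization, median centring, array weights, a batch term, a replicate block, only the lines compared, and leaving out each array.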

Additional observations from a re-analysis of the deposited data

Results flagged for a closer look

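In BT20 at 0 min, 4 probe sets had 1 array far from the other 3 by Dixon's ratio of the gap to the range. Replicate 4 was the highest for EREG 205767_at, at 11.95 against 11.055 to 11.155, and the lowest for HBEGF 203821_at, at 6.98 against 7.44 to 7.51. It was also the lowest for EGF 206254_at, at 2.63, near background. Replicate 1 was the highest for NRG1 206343_s_at, at 1.86, near background as well. All 18 probe sets were looked at in this group, and chance alone marks about 1 in 20.

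On the leading probe sets, the 24 h change differed between lines by a test of the difference itself for HBEGF (-3.61), EREG (-2.82), TGFA (-1.54) and BTC (-1.42) in BT20 minus MDA-MB-453. It did so for HBEGF (-2.92), EREG (-2.005) and BTC (1.07) in BT20 minus MCF, and for BTC (2.50) in MDA-MB-453 minus MCF. EREG lay below 4 in both other lines and HBEGF in MDA-MB-453, so a fall there could not have been measured. TGFA in MDA-MB-453 and HBEGF in MCF lay close to 4, so a fall as large as in BT20 could hardly have been measured there.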

How the results depend on the processing

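The 24 h calls of HBEGF, EREG and TGFA in BT20, the 6 h call of HBEGF and the 24 h rise of BTC in MDA-MB-453 kept direction and call under every alternative run, leave-one-out included, with ranges of -3.83 to -1.75, -2.56 to -2.23, -1.45 to -1.01, -2.93 to -1.43 and 0.93 to 1.61. The number of ligands called became 1 at 30 min with array weights (HBEGF, -0.99). At 6 h in BT20 it became 2 with the mean of the probe sets (EREG joins), with array weights and with the BT20 arrays alone (TGFA joins both times), and 2 with the batch term (BTC joins). In MDA-MB-453 it became 2 with array weights and with that line alone, in MCF 1 with all 25 arrays, in BT20 minus MCF 5 with array weights, and in MDA-MB-453 minus MCF 4 with array weights. TGFA 211258_s_at reversed at 6 h with the batch term, to -0.46. BTC in BT20 minus MCF lost its call with the mean of the probe sets (0.86) and with quantile normalization repeated (1.04). Over all genes, the batch term took the 6 h calls from 4827 to 292, and all 25 arrays took the MCF calls from 1 to 404. The replicate block left the number of ligands called at 0, 1 and 3 in BT20 at 30 min, 6 h and 24 h, and took EREG 1569583_at at 30 min to -1.95 (adjusted p = 0.051); 4 of 18 same-numbered BT20 pairs correlated over 0.1. The causes of these shifts were not tested. Values below or near 4 limit what can be said of NRG1 in all lines and of EGF in BT20 and MDA-MB-453. The same holds for HBEGF in MDA-MB-453, in MCF and in BT20 at 24 h. They also limit it for TGFA and BTC in MDA-MB-453, for EREG outside BT20 and for EREG 1569583_at at 30 min and 24 h.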
